A study of Mus musculus with 6 samples.

Results

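The hemoglobin and red cell genes were Hba-a1 and Hba-a2, which code for the adult alpha chain of hemoglobin, Hbb-bs and Hbb-bt, which code for the adult beta chain, and Alas2, which codes for the first enzyme of heme synthesis in red cell precursors. These 5 genes were chosen by name as a gauge of the blood left in the tissue, and all 5 were found among the 35275 genes of the deposited count table. Poly(A) RNA of whole spinal cord from 3 Sox2 cKO mice and 3 control (Ctrl) mice on the C57BL/6 strain was measured by bulk RNA-seq. The Sox2 cKO mice carried mGfap-Cre:Sox2fl/fl, in which Cre recombinase under the mouse Gfap promoter removes the floxed Sox2 gene in most astrocytes. The study reports unchanged SOX2 in oligodendroglial cells and neurons, the other cells in which it checked the deletion. The sample labels give the Ctrl genotype as mGfap-Cre:Sox2+/+, the study's methods describe Sox2fl/fl littermates, and the series design allows either. The labels give an age of 90 days in one field and of 80 days in another. For the harvest of brain and spinal cord, the study's methods describe anesthesia and perfusion through the heart with ice-cold PBS, a saline that washes blood out of the vessels.

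The columns of the tables carry numbers instead of sample names, and the even numbers (libraries 2, 4 and 6) were read as Ctrl and the odd ones (libraries 1, 3 and 5) as Sox2 cKO. Values of single libraries are given below in that order of numbers. The libraries held between 21507911 and 28392184 counts, and the depths of the groups overlapped. Sox2, the deleted gene, was at 14.8 to 29.5 CPM (counts scaled by TMM to a common library size) in Ctrl and at 2.69 to 3.16 CPM in Sox2 cKO. The neuronal gene Snap25, at 1863 to 2838 CPM, and the myelin gene Mbp, at 12171 to 15330 CPM, were abundant in every library. Genotypes were compared over all genes by the quasi-likelihood test of edgeR with Benjamini-Hochberg adjustment at 0.05, and 24.6% of the 16137 genes tested were called.

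Hemoglobin is built of alpha and beta chains, each of which holds a heme group that binds oxygen. Circulating red cells have lost their nucleus, but the youngest of them still carry globin mRNA, so blood in a tissue sample brings globin reads with it. Globin transcripts have also been described at low levels in neurons and glia, and Alas2 is used mainly by red cell precursors, whereas other cells make heme with Alas1.

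In GRCm38, the build of mm10, Hba-a1 (ENSMUSG00000069919) lies at chr11:32283511-32284465 and Hba-a2 (ENSMUSG00000069917) at chr11:32296489-32297298, both on the plus strand and 12023 bases apart. Hbb-bs (ENSMUSG00000052305) lies at chr7:103826534-103828096 and Hbb-bt (ENSMUSG00000073940) at chr7:103812524-103813996, both on the minus strand and 12537 bases apart. Alas2 (ENSMUSG00000025270) lies at chrX:150547375-150570638 on the plus strand. The coding sequences of Hba-a1 and Hba-a2 hold 426 bases each and differ at 1 of them, C381T, counted from the first base of the start codon. Those of Hbb-bs and Hbb-bt hold 441 bases each and also differ at 1, C417T. The stretches of 60 coding bases around these sites are shown because they carry the only coding base by which a read can be given to one copy of a pair. They lie in the third exon of each gene, are read 5′ to 3′ on the gene's strand from the GENCODE M21 transcripts, and have the differing base in capitals.
Hba-a1, chr11:32284313-32284372: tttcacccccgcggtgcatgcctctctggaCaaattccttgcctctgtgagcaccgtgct
Hba-a2, chr11:32297130-32297189: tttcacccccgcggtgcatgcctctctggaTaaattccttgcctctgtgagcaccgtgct
Hbb-bs, chr7:103826668-103826727: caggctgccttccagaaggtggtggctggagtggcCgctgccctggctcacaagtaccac
Hbb-bt, chr7:103812659-103812718: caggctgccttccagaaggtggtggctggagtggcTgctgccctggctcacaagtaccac
Of all windows of 50 bases in the main transcript, 67.5% of those in Hba-a1 also occur in Hba-a2, and 86.9% of those in Hba-a2 occur in Hba-a1. The share was 65.8% for Hbb-bs and 58.3% for Hbb-bt, each with the other, and 0% for Alas2. How reads that match both copies were counted is not given in the sources used here. The split between the copies of a pair is therefore uncertain, and the sum of each pair is given beside it. If such reads were left out of the counts, the sums, shares and FPKM values of the globins are too low as well.

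The alpha chain genes were highest in Ctrl library 6 and lowest in Ctrl library 2, and the Sox2 cKO libraries lay between. Hba-a1 was at 21.6, 27.4 and 66.1 CPM in Ctrl and at 27.6, 26.4 and 35.4 CPM in Sox2 cKO. Ctrl library 6 stood far above the other 5 libraries, and the groups overlapped. The log2 fold change of Hba-a1 (Sox2 cKO minus Ctrl) was -0.36 ± 0.34 (SE, edgeR), with a 95% interval from -1.11 to 0.38 and an adjusted p of 0.448. Hba-a2 was at 2.20, 3.78 and 8.88 CPM in Ctrl and at 4.70, 3.17 and 4.80 CPM in Sox2 cKO. Again Ctrl library 6 was the highest and the groups overlapped. Its log2 fold change was -0.23 ± 0.41 (SE, edgeR), with a 95% interval from -1.13 to 0.68 and an adjusted p of 0.711. With the counts of both genes added before the fit, an alternative chosen after the data were seen, the alpha chain had a log2 fold change of -0.35 (adjusted p = 0.474, edgeR).

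The beta chain genes followed the same order at the extremes. Hbb-bs was at 28.8, 34.3 and 75.9 CPM in Ctrl and at 43.7, 41.3 and 51.4 CPM in Sox2 cKO. All Sox2 cKO libraries were above Ctrl libraries 2 and 4 and below Ctrl library 6. The group means were 46.3 ± 25.8 CPM in Ctrl and 45.5 ± 5.27 CPM in Sox2 cKO (SD, n = 3 each), and the log2 fold change was -0.024 ± 0.29 (SE, edgeR), with a 95% interval from -0.67 to 0.62 and an adjusted p of 0.958. Hbb-bt was at 3.59, 6.73 and 10.5 CPM in Ctrl and at 5.05, 4.43 and 4.65 CPM in Sox2 cKO. Here Ctrl libraries 4 and 6 were above every Sox2 cKO library and Ctrl library 2 was below them. The log2 fold change of Hbb-bt was -0.56 ± 0.31 (SE, edgeR), with a 95% interval from -1.24 to 0.12 and an adjusted p of 0.202. The summed beta chain, another alternative chosen after the data were seen, had a log2 fold change of -0.084 (adjusted p = 0.850, edgeR).

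Alas2 was the lowest of the 5 genes, with 21, 66 and 84 counts in Ctrl and 30, 45 and 59 counts in Sox2 cKO. These counts gave 0.942, 2.74 and 4.06 CPM in Ctrl and 1.32, 1.54 and 2.23 CPM in Sox2 cKO. Ctrl libraries 4 and 6 were above every Sox2 cKO library, and Ctrl library 2 was below them, as for Hbb-bt. The log2 fold change was -0.60 ± 0.43 (SE, edgeR), with a 95% interval from -1.55 to 0.36 and an adjusted p of 0.326. Exact Poisson intervals (95%), which cover counting error only, were 0.583 to 1.44 CPM in Ctrl library 2 and 3.23 to 5.02 CPM in Ctrl library 6. Alas2 shares 311 exon bases with Apex2, a DNA repair gene on the opposite strand. The library kit keeps the strand, but whether the counting used it is not given in the sources used here. Apex2 was at 4.13 to 4.28 CPM in Ctrl and at 4.95 to 5.18 CPM in Sox2 cKO (log2 fold change 0.27, adjusted p = 0.203, edgeR), and its part in the Alas2 counts was not tested.

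**Figure D1:**
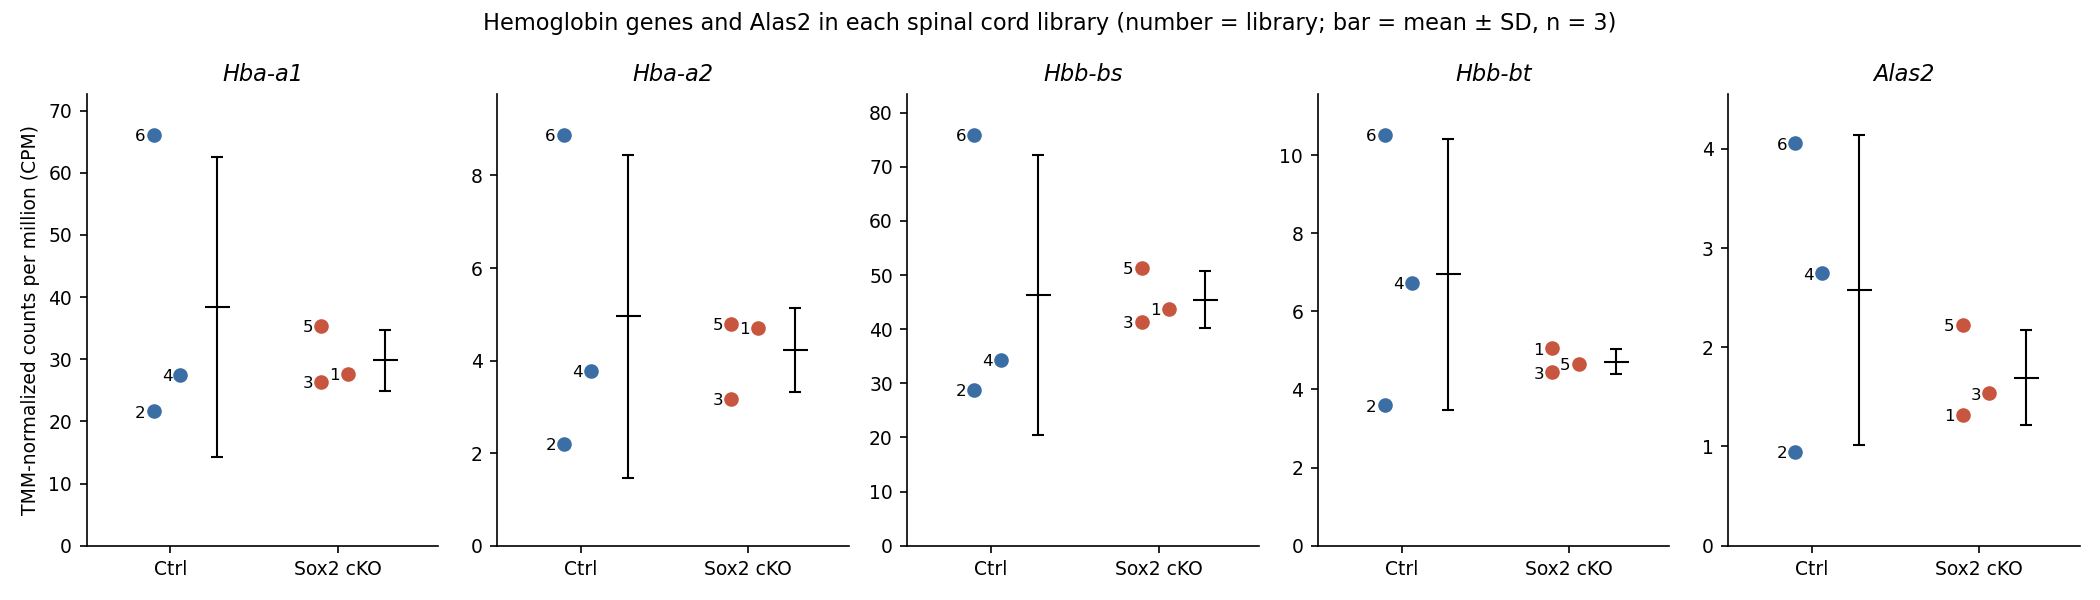
TMM-normalized CPM of Hba-a1, Hba-a2, Hbb-bs, Hbb-bt and Alas2 (y axes, linear and starting at 0) in the Ctrl (blue, 2, 4 and 6) and Sox2 cKO (red, 1, 3 and 5) libraries, with the group mean and SD (n = 3) in black. In each panel Ctrl library 6 is the highest and Ctrl library 2 the lowest point, and the Sox2 cKO points lie between them.

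Thus 0 of the 5 genes passed the test, against 24.6% of all genes tested. The number with an unadjusted p under 0.05 was also 0 of 5 in edgeR, and DESeq2 called 0 of 5, where it called 28.1% of all genes. The median log2 fold change of the 5 genes was -0.36, against 0.018 over all genes tested, and all 5 fitted values were below 0. Exact permutation of the CPM over the 6 libraries (two-sided, with 0.1 as the smallest p that 3 against 3 allows) gave p between 0.4 and 1.0 for the 5 genes. In bulk RNA, fewer red cells and less globin mRNA per red cell cannot be told apart.

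The difference between group means was smaller than the SD within Ctrl for each of the 5 genes, and that spread was wide. The SD of log2 CPM over the Ctrl libraries was 0.85 for Hba-a1, 0.996 for Hba-a2, 0.75 for Hbb-bs, 0.77 for Hbb-bt and 1.04 for Alas2, against a median of 0.16 over all genes tested. Between 96.9% and 99.0% of all genes tested had a smaller SD in Ctrl than each of these 5. Over the Sox2 cKO libraries the SD ran from 0.094 for Hbb-bt to 0.37 for Alas2, and the share of genes with a smaller SD ran from 37.2% to 90.7%. The highest library exceeded the lowest 3.06-fold for Hba-a1, 4.04-fold for Hba-a2, 2.64-fold for Hbb-bs, 2.93-fold for Hbb-bt and 4.30-fold for Alas2, where the median gene reached 1.49-fold. All 5 genes were highest in Ctrl library 6 and lowest in Ctrl library 2 of the 6 libraries, an order that 1.95% of all genes tested had.

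The 5 genes moved together across libraries. Over the 6 libraries, Pearson's r of log2 CPM ranged from 0.74 for Hbb-bs with Hbb-bt to 0.95 for Hba-a1 with Hbb-bs among the 10 pairs, and r between Alas2 and Hba-a1, which share no window of 50 bases, was 0.85. These values describe 6 libraries in which Ctrl libraries 2 and 6 set much of the range, and the copies of a pair can share reads. The promoters are shown because the genes vary together. In the 250 bases before the RefSeq start, 4 short words were searched on both strands: GATA, as bound by the factor GATA1, CACCC, as bound by KLF1, CCAAT, as bound by NF-Y, and TATAA, the core of the TATA box. All 4 globin promoters held all 4 words, whereas that of Alas2 held GATA, CACCC and TATAA. Of 27025 promoters of the same length in the RefSeq table, 54.1% held GATA, 51.3% CACCC, 34.5% CCAAT and 23.5% TATAA, and 8.69% held the first 3 together. The promoters of Hba-a1 and Hba-a2 share an identical run of 297 of the table's 300 bases, so that of Hba-a2 stands for both. The stretches below are RefSeq sequence of GRCm38.p6, 5′ to 3′ on the gene's strand, with the words in capitals. Each is the longest run of its window that holds no exon base of GENCODE M21, so words elsewhere in the window are not shown. Among those not shown are CACCC of Hbb-bs at -90 and of Alas2 at -40, -35 and -30. TATAA of Hbb-bt at -28 from the RefSeq start is not shown either. In the Alas2 stretch, TTATA and TATAA overlap.
Hba-a2, chr11:32296242-32296488, plus strand: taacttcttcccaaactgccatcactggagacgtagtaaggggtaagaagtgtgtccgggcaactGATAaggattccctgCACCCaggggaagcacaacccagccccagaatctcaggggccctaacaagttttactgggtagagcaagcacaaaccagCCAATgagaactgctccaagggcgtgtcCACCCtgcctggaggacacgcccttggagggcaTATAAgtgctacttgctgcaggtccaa
Hbb-bs, chr7:103827929-103828011, minus strand: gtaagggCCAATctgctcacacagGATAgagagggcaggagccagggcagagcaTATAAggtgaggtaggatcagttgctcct
Hbb-bt, chr7:103813997-103814173, minus strand: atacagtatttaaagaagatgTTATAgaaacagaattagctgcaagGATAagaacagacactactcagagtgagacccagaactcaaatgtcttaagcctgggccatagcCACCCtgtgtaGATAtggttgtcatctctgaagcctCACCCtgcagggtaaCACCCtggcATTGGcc
Alas2, chrX:150547167-150547374, plus strand: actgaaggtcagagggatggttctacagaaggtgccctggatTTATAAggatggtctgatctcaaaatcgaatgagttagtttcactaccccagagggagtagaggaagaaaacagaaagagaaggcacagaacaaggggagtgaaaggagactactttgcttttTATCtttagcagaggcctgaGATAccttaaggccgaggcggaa
A match of letters is a description of these windows and no evidence of binding.

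The 4 globin genes were a very small part of each library's counts, which may lack reads that match both copies of a pair. Their counts summed to 1252, 1737 and 3345 in Ctrl and to 1846, 2207 and 2547 in Sox2 cKO. The exact Poisson intervals (95%) were 1184 to 1323 counts in Ctrl library 2 and 3233 to 3460 in Ctrl library 6 and cover counting error only, not the spread between mice. As a share of all counts, the globins ranged from 0.00558% in Ctrl library 2 to 0.0152% in Ctrl library 6. Their summed level was 56.2, 72.2 and 161.5 CPM in the Ctrl libraries and 81.1, 75.3 and 96.2 CPM in the Sox2 cKO libraries. All 3 Sox2 cKO libraries exceeded Ctrl libraries 2 and 4, and Ctrl library 6 was 2.88-fold above Ctrl library 2. The means were 96.6 ± 56.7 CPM in Ctrl and 84.2 ± 10.8 CPM in Sox2 cKO (SD, n = 3 each).

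Per length, on the FPKM scale of the authors, Hbb-bs and Hba-a1 were the highest of the 5 genes. Hbb-bs ranged from 36.7 to 92.0 FPKM over the 6 libraries and was above 88.9% to 96.5% of all genes tested. Hba-a1 ranged from 30.7 to 89.2 FPKM, above 86.6% to 96.4% of genes. The other copies had lower values, with Hba-a2 at 3.94 to 15.1 FPKM and Hbb-bt at 5.07 to 14.1 FPKM, ranges that overlap. Differences between the copies of a pair depend on how reads that match both were counted. Alas2 was lowest, at 0.459 to 1.88 FPKM, above 10.1% to 28.8% of genes.

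Leaving out a Ctrl library turned the direction for 3 of the 5 genes and gave calls for 3. Without Ctrl library 6, the log2 fold change was 0.28 for Hba-a1 (adjusted p = 0.241), 0.49 for Hba-a2 (adjusted p = 0.264) and 0.53 for Hbb-bs (adjusted p = 0.0433, edgeR), so Hbb-bs was then called higher in Sox2 cKO, as were 3.64% of all genes in that fit. Hbb-bt and Alas2 stayed below 0 without it, at -0.14 (adjusted p = 0.743) and -0.13 (adjusted p = 0.866, edgeR). Without Ctrl library 2, Hbb-bt at -0.87 (adjusted p = 0.00927) and Alas2 at -0.99 (adjusted p = 0.0260, edgeR) were called lower in Sox2 cKO, as were 18.6% of all genes. A summed globin level that was 0.20 lower on the log2 scale with all libraries was 0.39 higher without Ctrl library 6 and 0.47 lower without Ctrl library 2. Each of these 3 calls was made only with 1 Ctrl library left out.

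**Figure D2:**
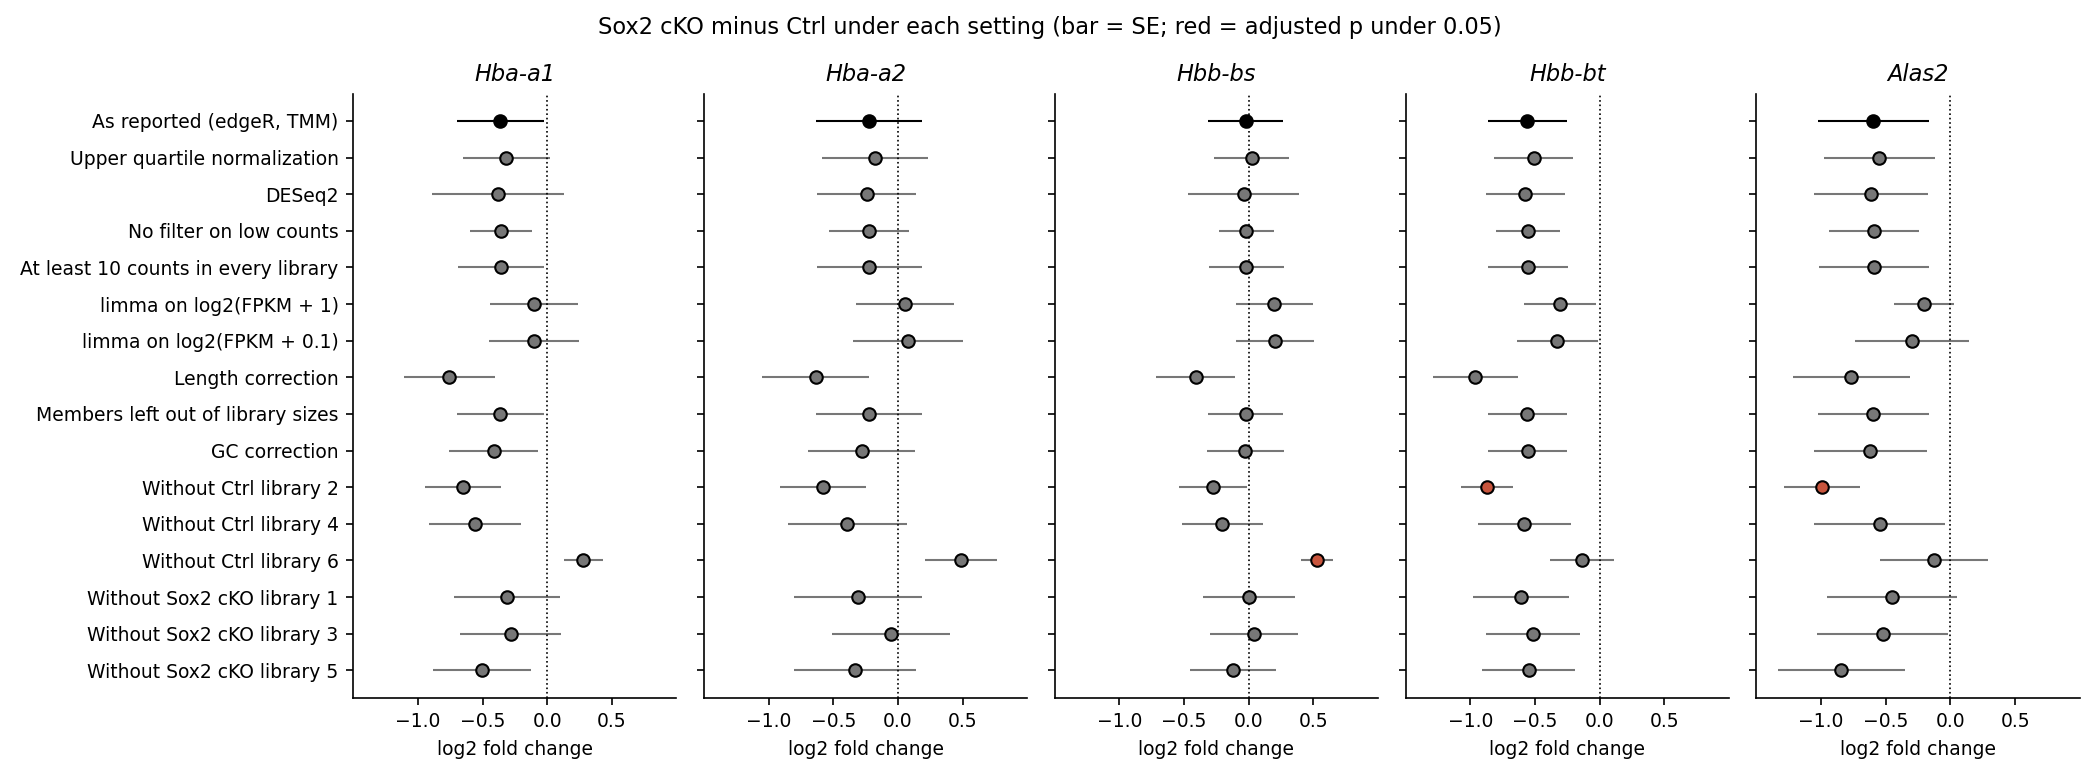
Log2 fold change, Sox2 cKO minus Ctrl (x axes, bars are SE), of each of the 5 genes under the reported fit (black, top row) and 15 alternatives (rows), with red points where the adjusted p was under 0.05. Hba-a1, Hba-a2 and Hbb-bs turn positive without Ctrl library 6, and the red points are Hbb-bs without Ctrl library 6 and Hbb-bt and Alas2 without Ctrl library 2.

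The globin genes are short, so fold changes were also computed with a correction for gene length. The lengths behind the FPKM values were 699 bases for Hba-a1, 554 for Hba-a2, 778 for Hbb-bs, 703 for Hbb-bt and 2037 for Alas2. Once the trend of counts with length was removed from each library, the log2 fold change was -0.76 for Hba-a1 (adjusted p = 0.165), -0.64 for Hba-a2 (adjusted p = 0.314), -0.41 for Hbb-bs (adjusted p = 0.378), -0.96 for Hbb-bt (adjusted p = 0.0750) and -0.77 for Alas2 (adjusted p = 0.265, edgeR). All 5 values lay further below 0 than without the correction, and 0 of 5 were called, against 13.1% of all genes in the corrected fit.

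The proportions of the globin transcripts differed between the libraries of the groups. These ratios were examined after the values had been seen and were not tested. The ratio of alpha to beta chain counts was 0.736, 0.762 and 0.868 in Ctrl, and 0.663, 0.647 and 0.717 in Sox2 cKO. Every Ctrl library was above every Sox2 cKO library, by a gap narrower than the SD within either group. Of all genes tested, 44.7% had CPM that did not overlap between the groups, a share for single genes and not for ratios. The ratio did not overlap after the length correction, at 0.739 to 0.863 in Ctrl and 0.644 to 0.711 in Sox2 cKO, nor after the GC correction, at 0.752 to 0.893 and 0.634 to 0.717. Between the genes with more counts in each pair, the ratio of Hba-a1 to Hbb-bs was 0.752 to 0.871 in Ctrl and 0.632 to 0.689 in Sox2 cKO.

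Within the beta pair, Hbb-bs had 8.01, 5.09 and 7.22 counts for each count of Hbb-bt in Ctrl, and 8.65, 9.31 and 11.1 in Sox2 cKO. These ranges did not overlap, but the gap between Ctrl library 2 and Sox2 cKO library 1 was narrower than the spread within either group. A ratio within a pair also depends on how reads that match both copies were counted, which is not given. Within the alpha pair, Hba-a1 had 9.84, 7.25 and 7.45 counts for each count of Hba-a2 in Ctrl and 5.88, 8.32 and 7.38 in Sox2 cKO, and the groups overlapped. Alas2 had 1.68, 3.80 and 2.51 counts for every 100 globin counts in Ctrl and 1.63, 2.04 and 2.32 in Sox2 cKO, again with overlap.

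**Figure D3:**
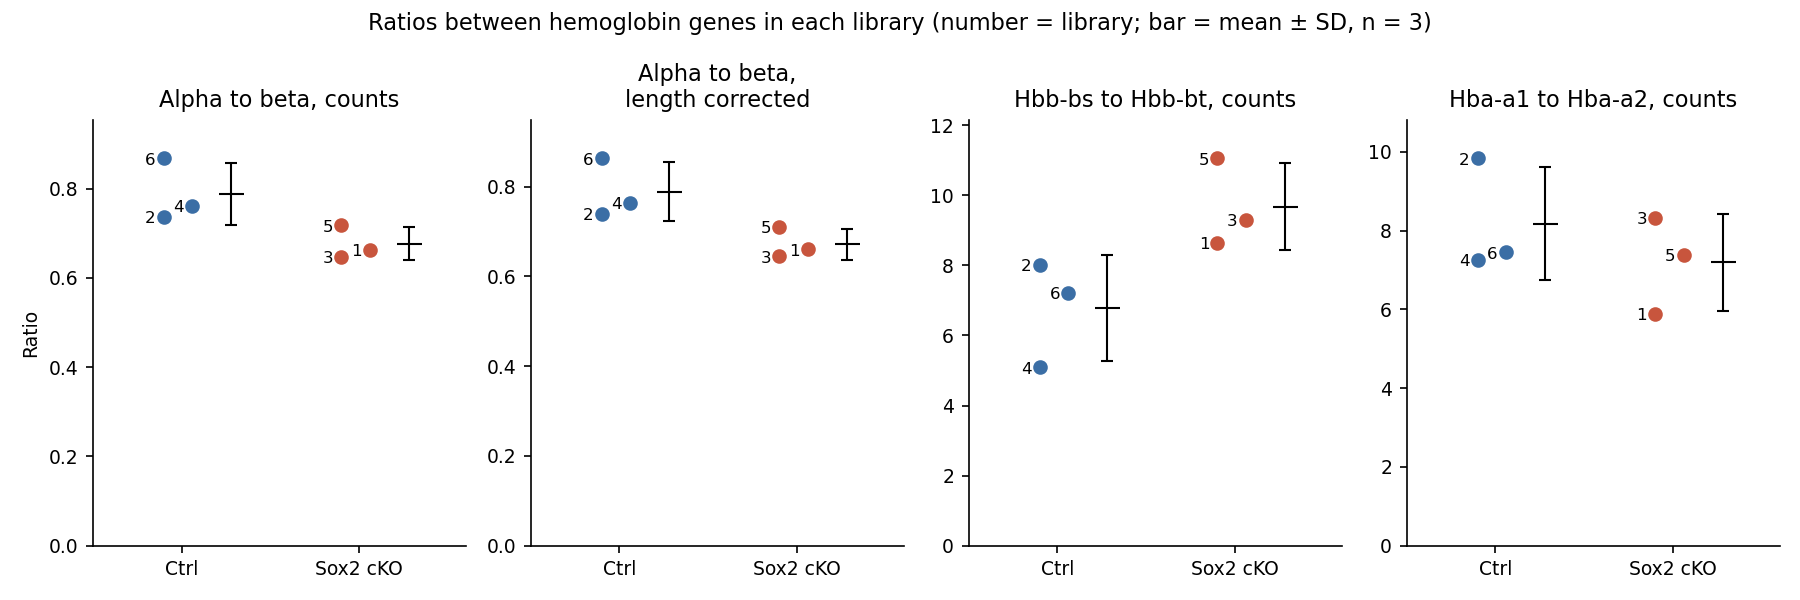
Ratio of summed Hba-a1 and Hba-a2 to summed Hbb-bs and Hbb-bt, from counts and after the length correction, and count ratios of Hbb-bs to Hbb-bt and of Hba-a1 to Hba-a2 (y axes, linear and starting at 0), for each library, with the mean and SD of each group (n = 3) in black. The alpha to beta ratio is higher in all 3 Ctrl libraries than in all 3 Sox2 cKO libraries, whereas the Hba-a1 to Hba-a2 ratio overlaps.

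The embryonic globins were almost absent. Hbb-bh1, Hbb-bh2 and Hba-x had 0 counts in every library, which allows up to 3 counts in each. Hbb-y had 1, 2 and 6 counts in Ctrl and 0 counts in each Sox2 cKO library, too few to be tested.

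Of 29 other genes known from red cells and their precursors, 15 passed the filter on low counts, 3 rose, 3 fell and 9 did not pass the test, where 24.6% of all genes tested were called. The median log2 fold change of the 15 was -0.19, but it was 0.26 over the 26 genes tested without the filter and 0.071 with limma on log2(FPKM + 1), so its sign changed with the setting. Red cell proteins with few other sites of expression were near the limit of detection. Slc4a1, the anion exchanger of the red cell membrane, was at 0.897, 1.16 and 1.40 CPM in Ctrl and at 0.483, 1.23 and 0.982 CPM in Sox2 cKO, and its log2 fold change was -0.33 (adjusted p = 0.522, edgeR). Epb42, of the red cell membrane skeleton, had 0 to 6 counts.

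The genes of the list that moved are also used outside red cells. Add2, a subunit of the spectrin-binding protein adducin, fell by 0.97 on the log2 scale, from 92.5 to 134.4 CPM in Ctrl to 44.2 to 69.4 CPM in Sox2 cKO (adjusted p = 0.0126, edgeR). Ank1, which anchors membrane proteins to spectrin, fell by 0.46 (adjusted p = 0.0325) and Tmod1, which caps actin filaments, by 0.33 (adjusted p = 0.0385). Gypc, a membrane glycoprotein, rose by 1.01 (adjusted p = 0.0236), Slc25a37, which carries iron into mitochondria, by 0.44 (adjusted p = 0.0224), and Bpgm, which makes 2,3-bisphosphoglycerate, by 0.34 (adjusted p = 0.0301). The levels of Ank1, at 184.7 to 350.3 CPM, exceeded the summed level of the 4 globins in every library. After the length correction 4 of the 6 calls were kept, and those of Ank1 and Bpgm were lost. The 6 calls became 0 without Ctrl library 4 or Sox2 cKO library 1, 1 without Ctrl library 6 or Sox2 cKO library 3, 4 without Sox2 cKO library 5 and 9 without Ctrl library 2. Over all genes, 3970 calls became 26 without Ctrl library 4, 8 without Sox2 cKO library 1 and 1082 without Ctrl library 6. They became 1359 without Sox2 cKO library 3, 2665 without Sox2 cKO library 5 and 6119 without Ctrl library 2.

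The transcription factors of red cell precursors gave 0 calls among 5 tested genes of 8, where 24.6% of all genes tested were called. They had 1 unadjusted p under 0.05 in edgeR and 1 call in DESeq2, which called 28.1% of all genes. Both were Zfpm1, with a log2 fold change of -0.42 in edgeR (adjusted p = 0.0525, edgeR, and 0.0290, DESeq2). Gata1, the master regulator of red cell development, had 0 to 4 counts and Klf1, which activates the adult beta globin genes, 0 to 7 counts. Ldb1, at 55.5 to 59.5 CPM, and Zfpm1, at 14.6 to 23.6 CPM, were the most abundant, and both are used in other cells.

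Of 8 other genes of heme synthesis, all of which passed the filter, 2 rose, 0 fell and 6 did not pass the test, and their median log2 fold change was 0.30, where 12.2% of all genes tested were called higher. Alas1, which codes for the form of the first enzyme that most tissues use, was at 34.8, 31.9 and 27.6 CPM in Ctrl and at 44.2, 36.7 and 39.5 CPM in Sox2 cKO. The groups did not overlap, and Alas1 rose by 0.35 ± 0.11 (SE, adjusted p = 0.0409, edgeR). Ppox, which oxidizes protoporphyrinogen near the end of the pathway, was at 13.9, 10.6 and 11.7 CPM in Ctrl and at 21.8, 20.7 and 16.9 CPM in Sox2 cKO. It rose by 0.72 ± 0.14 (SE, adjusted p = 0.0127, edgeR), again with no overlap. Alad and Urod also had no overlap but did not pass the test. The groups did not overlap for 5 of the 8 genes, against 44.7% of all genes tested. Cpox and Fech, which completes heme by inserting iron, had log2 fold changes of -0.012 and 0.070. After the length correction 1 of the 8 genes, Ppox, was called. Without Ctrl library 4 or without Sox2 cKO library 1, 0 of the 8 were called, without Ctrl library 6, Sox2 cKO library 3 or Sox2 cKO library 5, 1 was called, and without Ctrl library 2, 5 were called. The calls over all genes ranged from 8 to 6119 in these fits.

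**Figure D4:**
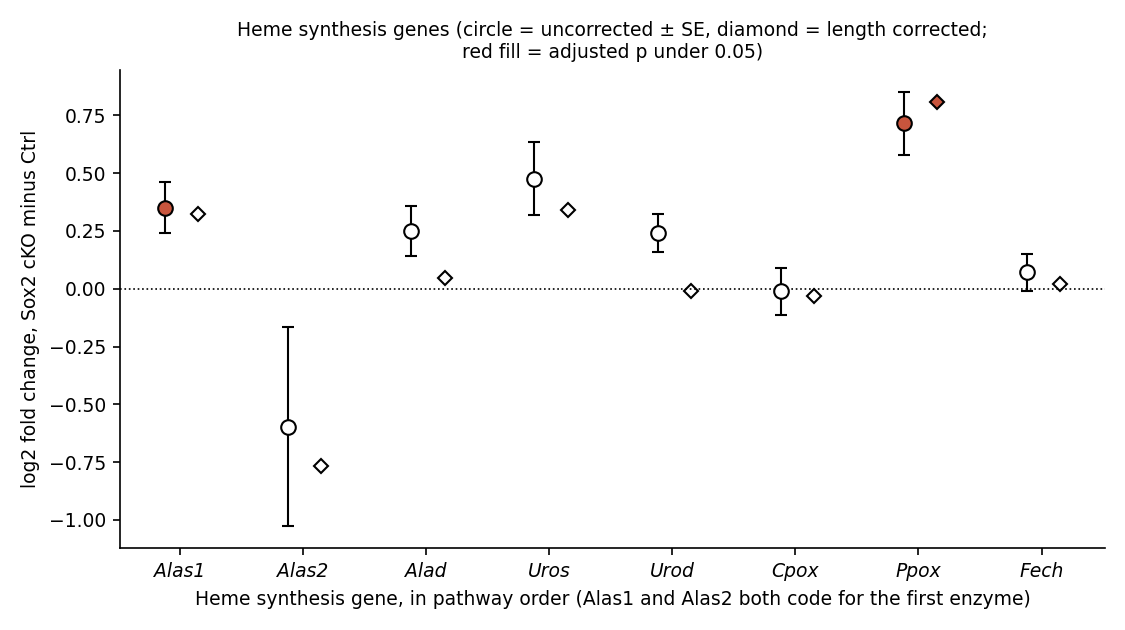
Log2 fold change, Sox2 cKO minus Ctrl (y axis), of Alas1, Alas2, Alad, Uros, Urod, Cpox, Ppox and Fech, in the order of heme synthesis, from the uncorrected fit (circles, bars are SE) and after the length correction (diamonds), with red fill where the adjusted p was under 0.05. Alas2 lies at -0.60 without a call, while Alas1 and Ppox lie above 0 with a call, and Ppox keeps it after the correction.

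Of 4 globins of other tissues, 2 rose and 2 did not pass the test, where 12.2% of all genes tested were called higher. Ngb, the neuronal globin, rose by 0.58 (adjusted p = 0.0418) and Cygb, a globin of fibroblasts and some neurons, by 0.47 (adjusted p = 0.0246, edgeR), whereas Mb, the myoglobin of muscle, had a log2 fold change of 1.23 (adjusted p = 0.113) and Adgb of -0.48 (adjusted p = 0.284) and did not pass. The 2 calls became 0 without Ctrl library 4, Ctrl library 6, Sox2 cKO library 1 or Sox2 cKO library 5, and 1 without Sox2 cKO library 3. In the same order, the 3970 calls over all genes became 26, 1082, 8, 2665 and 1359. Of 10 tested genes that bind, take up or break down free hemoglobin and heme, 2 rose, 1 fell and 7 did not pass, a share of 30% against 24.6% of all genes tested. Hp, which binds free hemoglobin, rose by 1.51 from 0.404 to 0.531 CPM in Ctrl to 1.26 to 1.32 CPM in Sox2 cKO (adjusted p = 0.0130, edgeR). Abcg2, an exporter of porphyrins, rose by 0.30 (adjusted p = 0.0490), and Lrp1, a large receptor that takes up heme bound to hemopexin and many other ligands, fell by 0.69 (adjusted p = 0.0150). After the length correction Hp and Cygb were still called, and Ngb, Abcg2 and Lrp1 were not.

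Of 12 neutrophil genes 9 were tested and 7 rose, where 12.2% of all genes tested were called higher. Those that rose include Lcn2 by 3.07, S100a9 by 2.36, Mmp8 by 2.06 and S100a8 by 1.91 on the log2 scale (adjusted p = 0.0176, 0.0124, 0.0181 and 0.0172, edgeR). In Sox2 cKO library 5, Lcn2 at 1.51 CPM and S100a8 at 5.36 CPM were below Ctrl library 2, at 1.75 and 5.74 CPM. The groups did not overlap for 4 of the 9 tested, S100a9 and Mmp8 among them, against 44.7% of all genes tested. The summed neutrophil level was 26.2, 20.4 and 19.9 CPM in Ctrl and 96.9, 89.1 and 29.2 CPM in Sox2 cKO. Ctrl library 6, which had the most globin, thus had the lowest neutrophil sum, and Sox2 cKO library 5, the highest of its group for globin, was the lowest of its group for neutrophil genes. The 7 neutrophil calls became 0 without Ctrl library 4 or Sox2 cKO library 1, 1 without Ctrl library 6 and 2 without Sox2 cKO library 3. In the same order, the 3970 calls over all genes became 26, 8, 1082 and 1359. The 9 platelet genes summed to 6.66 to 9.65 CPM in Ctrl and 8.12 to 11.9 CPM in Sox2 cKO, with the lowest value in Ctrl library 6. Of 4 tested, 1, Pf4, rose by 1.58 (adjusted p = 0.0335, edgeR). The log2 fold change was below 0 for 2 of these 4 platelet genes, and their median was -0.0045. The 10 lymphocyte genes summed to 33.3 to 48.5 and 53.0 to 67.4 CPM, nearly all of it Ighm, which rose by 0.53 (adjusted p = 0.0251), while Cd3e and Cd3d of T cells had 0 to 8 counts. The 5 monocyte genes summed to 1.66 to 2.47 and 1.81 to 6.00 CPM, and 1 of 2 tested, Chil3, rose by 1.54 (adjusted p = 0.0329, edgeR). After the length correction 5 neutrophil genes were called higher. The calls of Pf4, Ighm and Chil3 were then lost (adjusted p = 0.0889, 0.155 and 0.0742, edgeR).

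The 10 endothelial genes, which mark the vessel wall, summed to 380.1 to 447.6 CPM in Ctrl and 379.1 to 506.2 CPM in Sox2 cKO, with the highest sum in Sox2 cKO library 1. Of these 10 genes 1 rose, Ly6c1, by 1.09 (adjusted p = 0.0125, edgeR), and 9 did not pass the test, a share of 10% against 12.2% of all genes tested that were called higher. Of 8 genes that check the tissue, Gfap and Aldh1l1 of astrocytes fell by 1.11 and 0.37 (adjusted p = 0.0102 and 0.0266, edgeR), and 6 did not pass. The part of blood, vessels or perfusion in any of these levels was not tested. Without Ctrl library 4 or without Sox2 cKO library 1, 0 genes of the blood cell, heme, globin and endothelial lists were called. Over all genes, 26 of 16373 and 8 of 16482 were called in these fits.

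**Figure D5:**
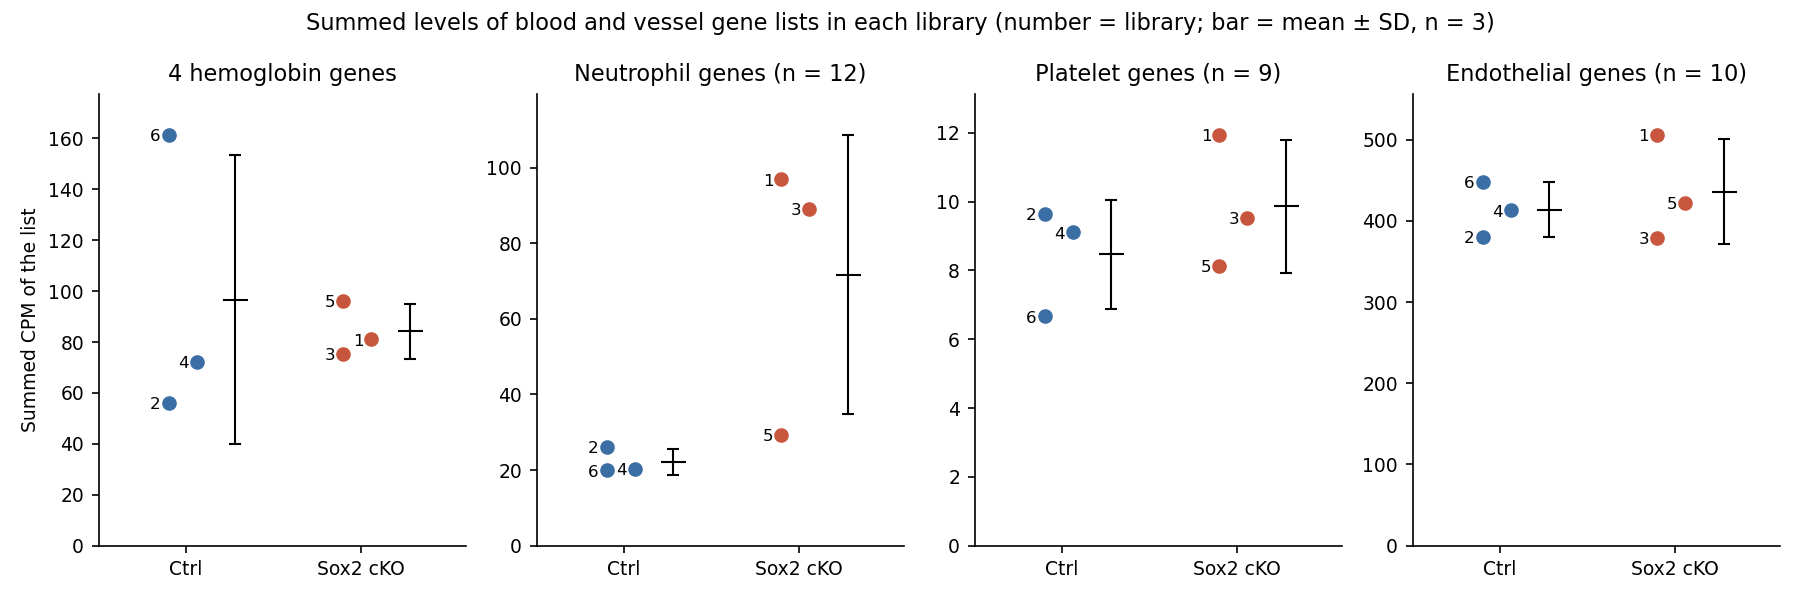
Summed CPM (y axes, linear and starting at 0) of the 4 globin genes and of the neutrophil, platelet and endothelial lists in each library, with the mean and SD of each group (n = 3) in black. Ctrl library 6 is the highest for the globins, at 161.5 CPM, and the lowest for the neutrophil and platelet genes, and Sox2 cKO libraries 1 and 3 stand above the rest for the neutrophil genes.

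Among 13318 tested genes with a mean count of at least 50, the 10 whose log2 CPM was most like the log2 summed globin level over the 6 libraries were Igfbp4, Pold1, Tmed4, Rnf144b, Arnt, Cyb5d2, Iqsec2, Gcat, Polr3c and Fam69c, with Pearson's r from 0.98 down to 0.95. The genes summed had r of 0.99 for Hba-a1, 0.97 for Hba-a2, 0.98 for Hbb-bs and 0.83 for Hbb-bt with the total they are part of, and Alas2, which is not part of it, had 0.82. Igfbp4, which codes for a secreted binding protein of insulin-like growth factors, was at 44.7, 53.4 and 72.9 CPM in Ctrl and at 53.2, 49.1 and 58.9 CPM in Sox2 cKO. It had the order of the globins at both ends but a narrower range. None of the markers in the erythroid list was among the 10, and over only 6 libraries a high r alone separates little.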

How the data were processed

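Single-end reads had been aligned by the authors (STAR 2.5, mm10) and counted per gene (HTSeq 0.6.1), per the labels and the study's methods. They deposited raw counts and FPKM values, the latter scaled by total count and gene length. The annotation and strand setting of the counting are not given in the sources used here. Columns were assigned to groups by the mouse numbers on a protein blot of the study. The group means then matched those in its gene table for 1999 of 1999 genes within 0.1%.

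Names and positions came from GENCODE M21, which matched 34490 of 35275 identifiers. Of 30 red cell genes listed, 29 were found. The groups were compared with edgeR 4.0.16 in R 4.3.3 (filterByExpr, TMM, quasi-likelihood test without covariates, Benjamini-Hochberg over all genes), and the fits were checked on simulated data. Correlations used log2 CPM with a prior count of 2. The 15 pairs of libraries had chi-square per degree of freedom between 6.80 and 84.3, so none was a copy. P-values measure the spread between 3 mice a group.

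Alternatives were upper quartile normalization, DESeq2 1.42.0, no filter, at least 10 counts in every library, limma 3.58.1 on log2 FPKM with pseudocounts of 1 and 0.1 (mean FPKM of at least 0.5), a length correction (lowess, span 0.3), the 5 genes left out of library sizes, and leaving out each library. The GC correction and the sums of paralogues were added after seeing the data. Members, lists and tests were chosen with earlier results of these data known. All 5 members are named. Of other lists, genes that passed are named, up to 4 in each direction by fold change, otherwise the 2 most abundant, and further names were chosen after their values were seen. Some genes of the lists are counted but not reported here by name.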

Additional observations from a re-analysis of the deposited data

How the results depend on the processing

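Of the 5 genes, 0 were called under every alternative that kept all 6 libraries. Leaving out a library gave 0 to 2 calls among them. The log2 fold changes of Hbb-bt and Alas2 were below 0 under all 15 alternatives. With the length correction Hba-a1, Hba-a2 and Hbb-bs were at -0.76, -0.64 and -0.41, their lowest values. When each library was left out, Hba-a1 ran from -0.65 without Ctrl library 2 to 0.28 without Ctrl library 6. Hba-a2 ran from -0.58 to 0.49 without these libraries and turned to 0.054 and 0.080 with limma on FPKM at pseudocounts of 1 and 0.1. Hbb-bs ran from -0.28 to 0.53 without these libraries and turned to 0.0042 and 0.041 without Sox2 cKO libraries 1 and 3, to 0.021 with upper quartile normalization and to 0.20 and 0.20 with limma at either pseudocount. The summed globin level ran from -0.47 to 0.39 on the log2 scale when each library was left out, and was -0.098 by FPKM, against -0.20.

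Heme synthesis genes called numbered 2, and 5 with upper quartile normalization and with limma at either pseudocount, 4 with DESeq2, without a filter or with at least 10 counts in every library, 1 with the length correction, and 0 to 5 when each library was left out. Other red cell genes called numbered 6, and 0 to 9 when each library was left out. Over all genes 3970 were called, 2109 with the length correction, and 8 to 6119 without Sox2 cKO library 1 and Ctrl library 2. The split of 1962 higher and 2008 lower calls became 2313 and 1652 with upper quartile normalization, and 2670 and 915 or 2614 and 896 with limma, which at a pseudocount of 0.1 moved the median of all genes to 0.11. The causes were not tested.

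No paired analysis was possible because the columns carry no replicate numbers. FPKM values are not scaled by TMM. Counts under 100 limit the precision of Alas2 in every library, of Hba-a2 in some, and of Hbb-bt in Ctrl library 2, at 80 counts.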
